A study of Mus musculus with 23 samples.

Results

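Deep intragenic regions are stretches of open chromatin that lie inside a protein-coding gene but far from both of its ends. They come from ATAC-seq, in which the transposase Tn5 cuts DNA and adds adapters where chromatin is open, that is, where nucleosomes do not cover it. The peaks of 9 lists were merged where they overlapped by 1 bp or more on the 19 autosomes and chromosome X. A merged region was kept when 3 or more of the 9 lists called it, when its midpoint lay inside the body of a protein-coding gene (mm10, RefSeq annotation of GRCm38.p6), and when that midpoint was more than 10 kb from the start and the end of every protein-coding gene. This gave 2929 regions, 15.6% of the 18808 regions called by 3 or more lists. All merged regions together numbered 118102.

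The tissue was the mesenchyme of the maxillary prominence, an outgrowth of the embryonic face from which the upper jaw and palate develop. It came from wild-type C57BL/6 mouse embryos at 3 stages, embryonic day 10.5 (E10.5), E11.5 and then E12.5. Before the assay the ectoderm had been peeled away after Dispase II digestion, no treatment or mutation was applied at any stage, and each stage had 3 biological samples with 1 peak list each. How many embryos made up a sample was not stated in the labels, so the p-values speak for these samples and no more. The p-values for host genes rest on a variance pooled over all tested genes. They do not measure the spread of a single gene among the samples.

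Open chromatin inside long genes is known to hold several kinds of element. Enhancers in introns can act on the gene that holds them or on a neighbouring gene, alternative promoters start shorter transcripts of the same gene, and some openings belong to transcripts nested in the host, such as microRNA precursors. Promoters with many CpG dinucleotides tend to be open in most cell types, while enhancers tend to differ between cell types and stages. A peak list does not say which kind of element a region is.

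The lists differed in length, from 5682 peaks in E11.5 sample 1 to 50361 in E12.5 sample 2. The 3 longest lists, of 26584 to 50361 peaks, were E11.5 sample 3 and E12.5 samples 1 and 2, and they called 1404 to 2276 of the deep regions. The other 6 lists called 319 to 1275. The lists hold no read counts, and sequencing depth was not known. Each list stands for 1 to 4 library runs, and whether runs were pooled before peaks were called was not stated. Peak names begin with a number, from 227 to 312 in the E11.5 lists and from 319 to 600 in the others, and the names of E11.5 samples 1 and 2 lack the letter M that all others carry. What these marks stand for was not stated, and the number cannot be told apart from stage E11.5. Of 14 marker genes of maxillary mesenchyme, 6 had a region called by 3 or more lists within 1 kb of their start or end. The same held for 7 of 15 neuronal and glial, 5 of 15 endothelial, 2 of 14 epithelial, 1 of 11 myogenic and 0 of 12 blood and macrophage markers. The part that list length or other cell types have in the results that follow was not tested except where a value is given.

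Some deep regions lie on an internal start, the RefSeq start of a shorter transcript of the gene that holds them. The windows below run from 250 bases before to 50 bases after such a start, are written 5′ to 3′ on the strand of the gene, and come from RefSeq (GRCm38.p6). They were chosen because they show the range of stage patterns. The window of Stk25, a serine/threonine kinase gene, lies at chr1:93635678-93635977 on the minus strand, in a region that all 9 lists called. The window of Rarb, the retinoic acid receptor beta gene, lies at chr14:16575427-16575726 on the minus strand, in a region called by 1 E10.5 list, 3 E11.5 lists and no E12.5 list. The window of Cdh18, a cadherin gene, lies at chr15:23036213-23036512 on the plus strand, in a region called by the 3 E11.5 lists alone. The window of Cast, the gene of the calpain inhibitor calpastatin, lies at chr13:74770687-74770986 on the minus strand and overlaps a region called by all E10.5 and E11.5 lists and no E12.5 list. Capitals mark GC boxes (GGGCGG on either strand) in Stk25 and Cast and the retinoic acid response element in Rarb, and the Cdh18 window holds neither.
Stk25: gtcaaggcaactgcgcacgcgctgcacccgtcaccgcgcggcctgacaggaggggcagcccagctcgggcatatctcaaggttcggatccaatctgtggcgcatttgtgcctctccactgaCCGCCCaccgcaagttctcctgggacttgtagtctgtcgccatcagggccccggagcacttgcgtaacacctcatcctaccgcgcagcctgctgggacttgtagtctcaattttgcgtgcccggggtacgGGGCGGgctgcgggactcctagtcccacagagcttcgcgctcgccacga
Rarb: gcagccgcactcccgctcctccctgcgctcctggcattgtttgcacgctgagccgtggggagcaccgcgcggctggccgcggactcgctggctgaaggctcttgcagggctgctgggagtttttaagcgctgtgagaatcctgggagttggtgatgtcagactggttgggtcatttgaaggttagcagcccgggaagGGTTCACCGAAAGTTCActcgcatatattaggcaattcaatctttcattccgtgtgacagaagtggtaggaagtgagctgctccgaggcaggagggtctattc
Cdh18: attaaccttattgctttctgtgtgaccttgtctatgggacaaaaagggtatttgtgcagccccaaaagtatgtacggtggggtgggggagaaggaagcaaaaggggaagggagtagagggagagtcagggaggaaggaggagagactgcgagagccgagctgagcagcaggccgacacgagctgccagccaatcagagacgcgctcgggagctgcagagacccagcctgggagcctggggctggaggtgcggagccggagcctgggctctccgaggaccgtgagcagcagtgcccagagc
Cast: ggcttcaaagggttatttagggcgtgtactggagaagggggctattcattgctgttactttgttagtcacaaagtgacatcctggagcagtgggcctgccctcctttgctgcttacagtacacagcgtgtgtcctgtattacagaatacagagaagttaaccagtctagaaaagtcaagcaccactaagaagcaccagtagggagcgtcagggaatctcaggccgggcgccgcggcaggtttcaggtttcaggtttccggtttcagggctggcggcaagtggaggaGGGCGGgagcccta

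The Stk25 window is 64% G and C and holds 26 CpG dinucleotides and 2 GC boxes. The Cast window holds 10 CpG dinucleotides and 1 GC box, the Cdh18 window 12 and no GC box, and the Rarb window 17 and no GC box. The capitals in Rarb are the element through which this receptor gene is known to respond to retinoic acid, a direct repeat with a spacer of 5 bases. Searched as GGTTCA and AGTTCA separated by any 5 bases, on both strands, it occurred in 1 of the 21045 start windows of protein-coding genes, which is the Rarb window itself. A match is a description of the letters and not of binding.

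MicroRNA precursors overlapped 3 deep regions. The precursor of miR-199a lies in Dnm3 (dynamin 3), in a region at chr1:162217404-162217982 that also overlaps the start of Dnm3os, the opposite-strand transcript that is known to give rise to miR-199a in mouse mesenchyme. Its mature products, with the seed (bases 2 to 8) in capitals, are printed because the 2 arms have different seeds.
mmu-miR-199a-5p: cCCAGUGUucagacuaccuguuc
mmu-miR-199a-3p: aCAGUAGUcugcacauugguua
The authors' fold enrichment at this region was 3.72 in E10.5 sample 1 and 3.17 in sample 3, 8.06 in E11.5 sample 2 and 6.57 in sample 3, and 2.98 in E12.5 sample 2. The other 4 lists did not call it, so that every stage had at least 1 list with the region and 1 without. The precursor of miR-1904 lies in a Pde4d region called by 2 lists at each stage. That of miR-3971 overlaps the edge of an Slc43a2 region called by 1 E10.5 list and 2 E12.5 lists.

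The 2929 regions lay in 1883 host genes, and 1269 hosts held a single region. There were 235 hosts with 3 or more and 51 with 5 or more. Only 10 regions lay in the body of more than 1 gene, and those were given to the shortest. The median distance to the nearest gene start or end was 32.9 kb (interquartile range 17.9 to 67.2), and 426 regions (14.5%) were over 100 kb away. The farthest lay 745 kb inside Robo2, the gene of an axon guidance receptor. Just inside the distance limit, 116 regions lay 10 to 11 kb from a boundary, and just outside it 134 lay 9 to 10 kb away within a gene body. Just outside the limit of 3 lists were 4858 deep regions called by 2 lists, and 25885 were called by 1.

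The regions were narrow, with a median width of 479 bp (interquartile range 347 to 673), against 738 bp for regions within 1 kb of a gene start or end and 487 bp for intergenic regions 10 to 100 kb from the nearest gene. Within the deep part of gene bodies, which spans 735 Mb, there were 3.98 regions per Mb. Intergenic sequence 10 to 100 kb from genes held 4.55 per Mb and the 2 kb around gene boundaries 108 per Mb. For 2274 regions the strand of the host was known, and 51.5% of these lay nearer to the 5′ end of the host than to its 3′ end.

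Long genes hosted most of the regions without being densely marked. Host bodies had a median length of 108 kb, against 17.3 kb for all 21631 protein-coding genes. Of the 9823 genes with any deep body, 19.2% hosted a region. That share was 5.38% where the deep body was at most 20 kb, 28.0% at 50 to 100 kb and 55.8% above 500 kb. Density ran the other way, with 6.85, 5.15 and 1.59 regions per Mb in the same classes.

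**Figure D1:**
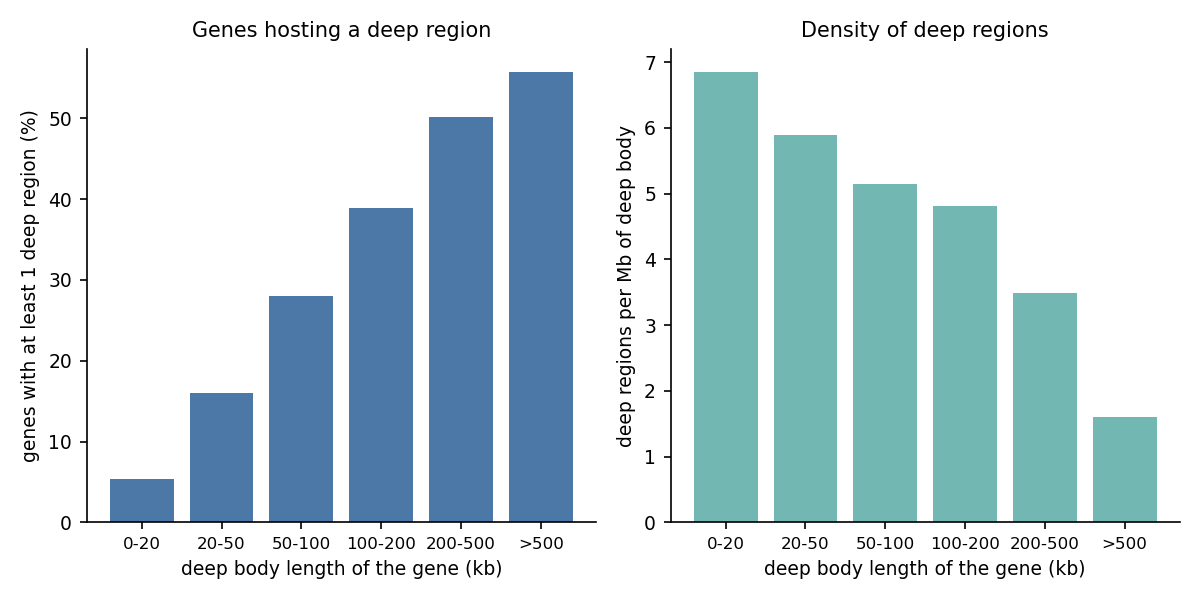
Left, percentage of genes that host at least 1 deep region, and right, deep regions per Mb, by the length of gene body more than 10 kb from every gene boundary (kb). Hosting is 5.38% in the shortest class and 55.8% in the longest, while density is 6.85 and 1.59 per Mb.

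Hosts with the most regions had varied roles. Ttc28, which encodes a tetratricopeptide repeat protein, Nav2, a neuron navigator gene, and Cdh13, which encodes the anchored cadherin T-cadherin, held 9 regions each. Ulk4, a kinase-related gene, and Caln1, a calcium-binding protein gene, held 8 each. Cacna1b (a neuronal calcium channel subunit), Fam189a1, Maml3 (a Notch coactivator), Tshz2 (a zinc finger transcription factor), Kalrn (a guanine nucleotide exchange factor) and Pde4d (a cAMP phosphodiesterase) held 7 each, and Eml1, a microtubule-associated protein gene, held 6. Per Mb of deep body the densest hosts with 4 or more regions were Gnas, the imprinted gene of the stimulatory G protein alpha subunit (4 regions, 94.3 per Mb), and Itgb3, the integrin beta 3 gene (4 regions, 94.2 per Mb). Clip4, Dennd2a, Cacna1b, Amotl1, Col26a1 and Eml1 followed with 40.4 to 53.7 per Mb. In Gnas the regions at chr2:174328964-174330453 and chr2:174330454-174330884 directly adjoin each other and were counted separately, which raises its density.

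The calls within these hosts were spread over the stages. Ttc28 regions were called 4, 5 and 5 times by the E10.5 lists, 0, 1 and 6 times by the E11.5 lists and 4, 8 and 2 times by the E12.5 lists. Cdh13 regions were called 3, 2 and 2 times by E10.5 lists, 0, 1 and 6 times by E11.5 lists and 5, 9 and 0 times by E12.5 lists. In both genes E11.5 sample 3 and E12.5 sample 2, the 2 longest lists, had the most calls, and the stages overlapped. Gnas regions were called 2, 2 and 1 times by E10.5 lists, 1, 2 and 3 times by E11.5 lists and 3, 4 and 2 times by E12.5 lists.

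Deep regions called by 8 or 9 lists were mostly internal starts. RefSeq start windows were at hand for the hosts of 2274 deep regions, and 275 of these (12.1%, in 261 hosts) overlapped a start of their own host, 21 the start of another gene and 1978 neither. This split was chosen after the data had been seen and is given with no test. Of the regions called by 3 lists 5.39% lay on a start of the host, of those called by 6 lists 24.9%, of those called by 8 lists 70.5% and of those called by all 9 lists 87.5% (28 of 32). Regions on a host start were also wider, with a median of 732 bp against 455 bp for those on no start.

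**Figure D2:**
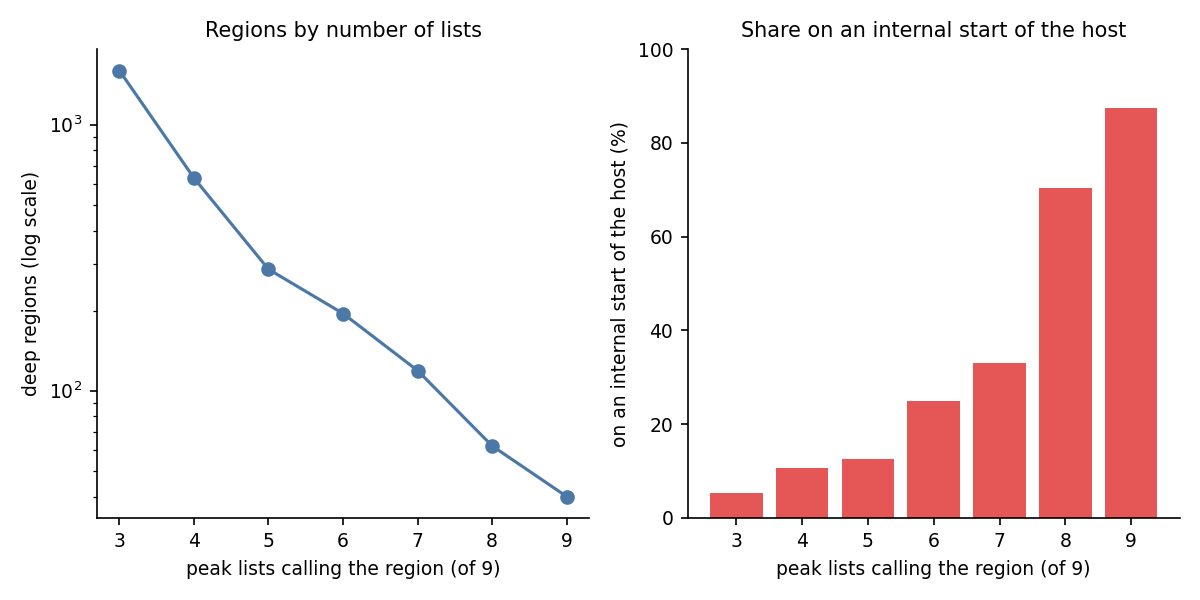
Left, number of deep regions (log scale) by how many of the 9 peak lists called them. Right, percentage of them on an internal RefSeq start of their host, which is 5.39% at 3 lists and 87.5% at 9.

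All 9 lists called 40 deep regions. The 10 with the highest mean rank lay in Stk25, Tiprl, Ipo5 (an importin), Asah1 (acid ceramidase), Arntl (the clock transcription factor BMAL1), Rps6ka2, Hdac4 (a histone deacetylase), Stag1 (a cohesin subunit), Acer3 (an alkaline ceramidase) and Por (cytochrome P450 oxidoreductase). Of these 10 regions, those in every gene except Asah1 overlapped an internal start of the host, and no start window was at hand for Asah1. In Arntl the authors' fold was 3.73, 3.25 and 3.08 in the E10.5 samples, 7.14, 8.76 and 7.21 in the E11.5 samples, and 5.06, 2.62 and 3.26 in the E12.5 samples. Folds depend on each list's own background: the median fold of called deep regions was 2.58 to 3.18 in the E10.5 lists, 3.20 to 5.59 in the E11.5 lists and 2.64 to 3.67 in the E12.5 lists. Folds are the authors' own and are given without a test between lists.

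Internal starts in open chromatin were rich in G and C. The tables held 1489 start windows in deep gene body, and 314 of them (21.1%) overlapped a deep region called by 3 or more lists. These windows had a median of 63.2% G and C, against 48.3% in the 912 windows that no list called and 56.7% in all 21045 windows of protein-coding genes. The median ratio of observed to expected CpG dinucleotides was 0.70, against 0.258 in windows with no call. The GC box GGGCGG occurred on either strand in 63.1% of them, in 18.97% of windows with no call and in 46.7% of all windows. The TATA box TATAAA occurred in 6.37%, 15.6% and 12.7% of the same 3 groups.

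Among the regions of 3 or more lists that a list called, the deep share was higher at E12.5. It was 11.3%, 11.6% and 12.1% in the E10.5 lists, 6.16%, 7.78% and 13.7% in the E11.5 lists and 17.8%, 16.9% and 13.8% in the E12.5 lists. Every E12.5 list lay above every E10.5 list and every E11.5 list, although E12.5 sample 3 (13.75%) was close to E11.5 sample 3 (13.70%). Among all merged regions that a list called, the deep share was 21.5% in E12.5 sample 3 and 23.2% in E11.5 sample 3, so that these 2 stages overlapped. The mean was 16.1% ± 2.11 at E12.5 and 11.7% ± 0.411 at E10.5 (SD, n = 3 each), a difference of 4.46 percentage points (exact two-sided permutation test, p = 0.1, the smallest that 3 lists against 3 can give). E12.5 minus E11.5 was 6.92 points (exact p = 0.1) and E11.5 minus E10.5 was -2.46 points (exact p = 0.4). The slope over the 3 stages was 2.23 points per day (exact p = 0.168).

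The boundary regions moved the opposite way to the deep share. Regions within 1 kb of a gene start or end made up 54.7% to 57.7% of the called regions in E10.5 lists, 51.0% to 76.3% in E11.5 lists and 36.9% to 48.0% in E12.5 lists. With those regions left out of the denominator, deep regions made up 26.3% to 26.7% of the calls in E10.5 lists, 26.0% to 27.9% in E11.5 lists and 26.4% to 28.3% in E12.5 lists. E12.5 was then 1.10 points above E10.5 (exact p = 0.3), and E11.5 was 0.13 points above E10.5 (exact p = 1). When each list was cut to its top 5682 peaks, the deep share was 6.27% to 7.68% at E12.5 and 4.77% to 5.23% at E10.5, a difference of 1.94 points (exact p = 0.1).

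**Figure D3:**
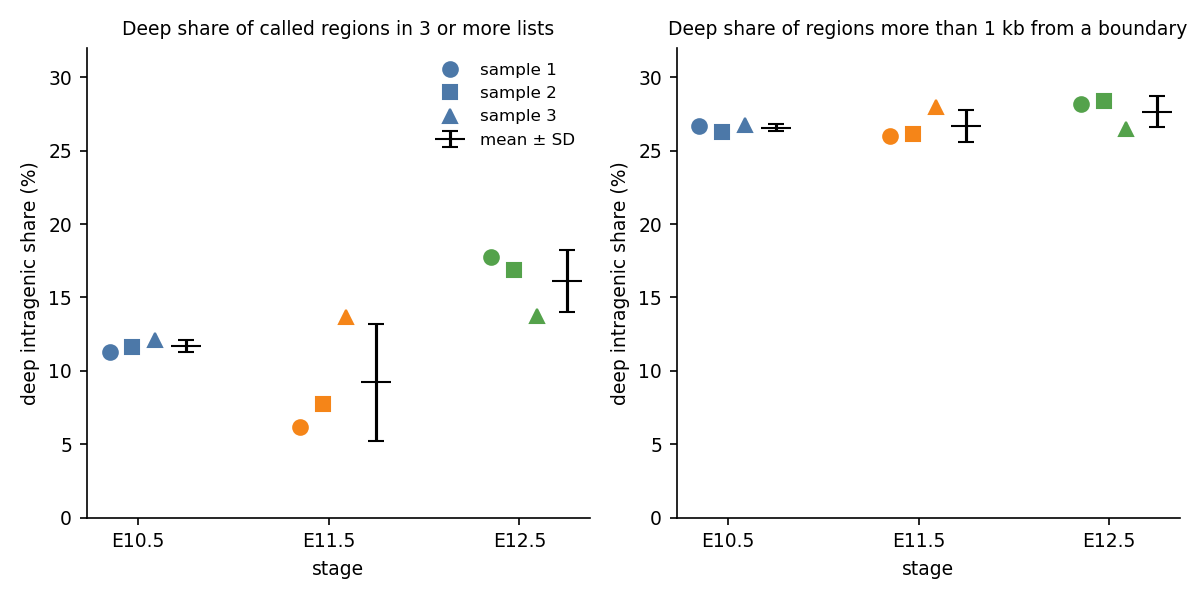
Deep intragenic regions as a percentage of the regions of 3 or more lists that a list called (left) and of those more than 1 kb from a gene boundary (right), by stage, with a point per list and the mean ± SD of 3 lists. The left shares run between 6.16% and 17.8%, while all 9 right shares lie between 26.0% and 28.3%.

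Between E10.5 and E12.5 more deep regions appeared than disappeared. Gained regions are those with a call in each of the 3 later lists and in no earlier list, and lost regions are the reverse. At E12.5 against E10.5, 149 deep regions (5.09%) were gained and 28 (0.956%) lost, where 3.00% and 1.92% of all 18808 regions were. Regions inside a gene body 1 to 10 kb from a boundary (4.40% gained, 1.298% lost) and intergenic regions 10 to 100 kb from genes (4.77% gained, 0.826% lost) had shares near those of deep regions, while boundary regions had 0.685% gained and 3.07% lost. When 1 list was dropped, a stage rested on 2 lists and more regions met the rule. Gained regions then numbered up to 496 without E12.5 sample 3, and lost ones up to 81 without E12.5 sample 2. In lists cut to equal length, 17 were gained and 15 lost.

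The regions gained between E10.5 and E12.5 that ranked highest in their lists lay in Tph2, Gnas, Crtac1, Prkcb and Ctdspl. The gained Gnas region, at chr2:174330454-174330884, directly adjoins the Gnas region at chr2:174328964-174330453. That neighbour lies on an internal start and was called by all 9 lists, so the gain borders an opening present at every stage. They were kept apart because they share no base. The Prkcb region, in the gene of protein kinase C beta, lies at chr7:122366414-122366867 and had an authors' fold of 4.30, 4.21 and 3.07 in the E12.5 lists and of 3.94 in E11.5 sample 3. No E10.5 list called it. The Ctdspl region, in a phosphatase gene, lies at chr9:118987743-118988235 and had folds of 4.36, 2.58 and 2.95 in the E12.5 lists alone. The highest ranked lost regions lay in Stard13, Itpkb, Cast, Sh3rf1 and Atxn7. The Stard13 region, in a GTPase-activating protein gene, lies at chr5:151368253-151369162 and had folds of 11.5, 12.9 and 11.4 in the E11.5 lists and 4.85, 3.62 and 3.75 in the E10.5 lists. All 3 E10.5 lists and no E12.5 list called it, and it overlaps a listed start of another gene, 1700028E10Rik.

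Between E10.5 and E11.5, 108 deep regions (3.69%) were gained and 51 (1.74%) lost, where 4.04% and 0.936% of all regions were. Intergenic regions 10 to 100 kb from genes had 2.82% gained and 1.31% lost, and those over 100 kb away 6.94% and 1.77%. Regions 1 to 10 kb inside a gene body had 2.70% and 1.15%, and boundary regions 4.91% and 0.354%. Among the highest ranked gains were regions in Zswim6, in Ift74 and Kifap3 (both of intracellular transport along microtubules) and in Fgd4 (a Cdc42 exchange factor). These 4 regions were called by the E11.5 lists alone, and those in Ift74, Kifap3 and Fgd4 lay on an internal start of the host. The highest ranked losses lay in Sh3rf1, Atp9b, Atp6v0a2, Ino80d and Ttll8. The Ttll8 region lay on no listed start of its host, and no start windows were at hand for the others. Without E11.5 sample 1, the shortest list, 195 were gained, and without E11.5 sample 3 153 were lost.

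Between E11.5 and E12.5, 180 deep regions (6.15%) were gained and 157 (5.36%) lost, where 3.52% and 7.74% of all regions were. Intergenic regions 10 to 100 kb from genes (6.01% gained, 4.36% lost) and regions 1 to 10 kb inside a gene body (4.97% and 4.76%) were near the deep ones. Regions over 100 kb from genes had 5.81% gained and 8.46% lost, and boundary regions 0.756% and 11.1%. The highest ranked gains lay in Trpm2, Ctdspl, Dok5, Sox5 and Fam13c. The Sox5 region, 322 kb inside the gene of a transcription factor needed for cartilage, lies at chr6:144460203-144460646 and had folds of 5.67, 3.24 and 3.11 in the E12.5 lists alone. The highest ranked losses lay in Stard13, Zswim6, Uggt2, Ift74 and Kifap3. Without E11.5 sample 3 390 were gained, and without E11.5 sample 1 301 were lost. In lists cut to equal length, and with a −log10 q of at least 5, more deep regions were lost than gained.

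The internal starts and the other deep regions had different stage patterns. At least 2 lists of a stage called 58.2% (E10.5), 93.1% (E11.5) and 40.7% (E12.5) of the 275 regions on a host start. For the 1978 regions on no start the values were 29.0%, 17.8% and 64.9%, and for all 18808 regions 48.8%, 55.0% and 57.3%. Boundary regions had 64.7%, 86.6% and 50.2%, near the starts, and intergenic regions 10 to 100 kb from genes had 32.5%, 21.3% and 64.2%, near the regions on no start. By list, regions on a host start were called at 62.2%, 68.4% and 46.5% in the E10.5 lists, 48.0%, 95.3% and 96.0% in the E11.5 lists and 26.2%, 56.7% and 43.6% in the E12.5 lists. Those on no start were called at 33.9%, 39.1% and 34.8% in E10.5 lists, 5.92%, 19.5% and 70.2% in E11.5 lists and 50.7%, 80.0% and 40.4% in E12.5 lists. E11.5 sample 1 called 48.0% of the starts and 5.92% of the rest, and E12.5 sample 1 called 26.2% of the starts and 50.7% of the rest.

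**Figure D4:**
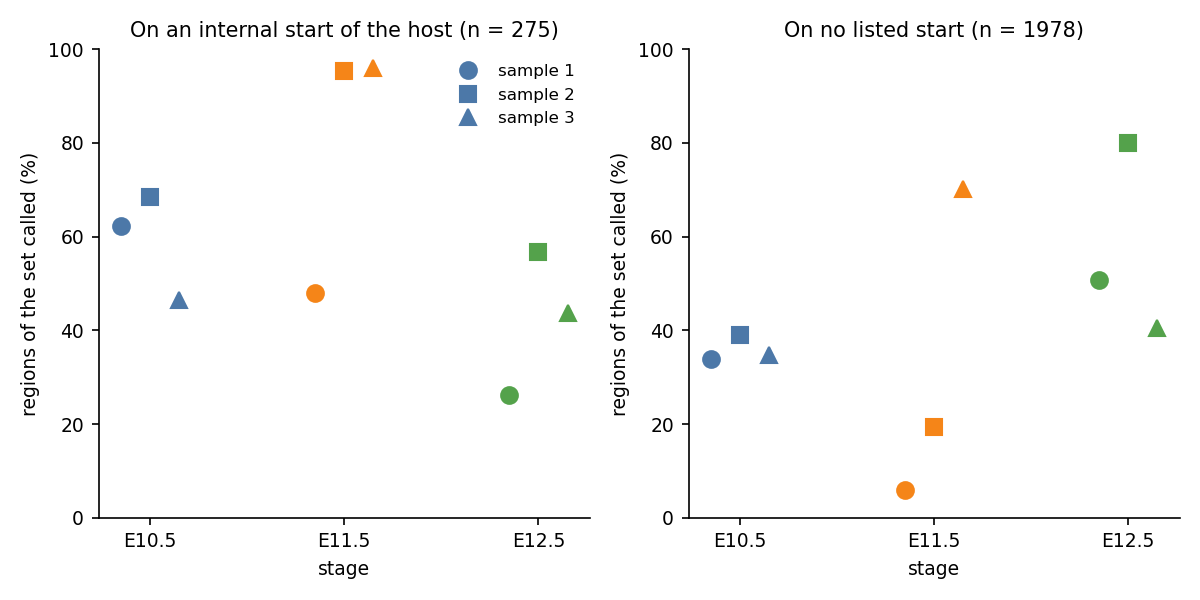
Percentage of deep regions called by each list, for 275 regions on an internal start of the host (left) and 1978 on no listed start (right), by stage, with a point per sample. The starts reach 95.3% and 96.0% in E11.5 samples 2 and 3, and the regions on no start reach 80.0% in E12.5 sample 2.

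Among the called deep regions, host starts made up 15.5% to 20.1% in the E10.5 lists, 15.8% to 51.6% in the E11.5 lists and 6.67% to 12.9% in the E12.5 lists. The E12.5 lists lay below all others. In lists cut to equal length the shares were 46.9% to 53.1% (E10.5), 65.5% to 67.9% (E11.5) and 31.1% to 37.9% (E12.5), and no stages overlapped. Of the starts, 0 were gained and 7 (2.55%) lost at E12.5 against E10.5, where 3.00% and 1.92% of all regions were. At E11.5 against E10.5, 27 (9.82%) were gained and 2 (0.727%) lost, where 4.04% and 0.936% of all regions were. At E12.5 against E11.5, 1 (0.364%) was gained, in the olfactomedin gene Olfm2, and 49 (17.8%) were lost, where 3.52% and 7.74% of all regions were. Boundary regions ran the same way in each comparison. They had 0.685% gained and 3.07% lost at E12.5 against E10.5. At E11.5 against E10.5 they had 4.91% gained and 0.354% lost, and at E12.5 against E11.5 0.756% gained and 11.1% lost.

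The starts lost between E10.5 and E12.5 lay in Cast, Atxn7, 1110004F10Rik, Sptbn1 (a spectrin), Sema4b (a semaphorin), Denn2b and Tank (a signalling adaptor). The Cast region had folds of 8.88, 11.6 and 10.4 in the E11.5 lists and 3.72, 2.80 and 2.83 in the E10.5 lists. The Atxn7 region had 3.61, 7.55 and 6.57 in the E11.5 lists and 3.88, 3.80 and 3.08 in the E10.5 lists. In both, every E10.5 and E11.5 list had a call and no E12.5 list had one.

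Rarb shows both patterns in 1 gene. Its start region at chr14:16574925-16575750, the one with the response element printed above, had folds of 2.89 in E10.5 sample 2 and 6.90, 7.40 and 5.66 in the E11.5 lists. A second region at chr14:16501994-16502615 was called by the E12.5 lists alone, with folds of 3.50, 2.30 and 3.68. The third and the fourth Rarb regions were called by 1 E10.5 and 2 E11.5 lists and by 1 E10.5 and 2 E12.5 lists. Summed over the gene the calls were 2, 1 and 2 at E12.5 and 1, 2 and 2 at E11.5, and the gene did not pass the test of host genes described next (limma, adjusted p = 0.873).

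Genes that hosted 3 or more regions, each in 3 to 8 lists, were tested for calls beyond what the length of each list gives. The expected number of calls came from a model with 1 odds per list, given how many lists called each region. Calls minus expected calls, in SDs of the expected number, were compared between stages with limma over 992 rows of deep and other regions by gene, of which 232 were deep. At E12.5 against E11.5, 40 deep rows (17.2%) were higher and 3 (1.29%) lower at an adjusted p under 0.05, where 9.98% and 1.61% of all rows were. At E12.5 against E10.5, 7 (3.02%) were higher and 0 lower, where 1.01% and 0% of all rows were. At E11.5 against E10.5, 0 of 232 deep rows passed in either direction, where 0% of all rows did, and 26 had an unadjusted p under 0.05. At E12.5 against E10.5 67 rows had one.

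These counts depended on how the calls were modelled. With separate odds for deep, boundary and other regions, 2 deep rows were higher and 10 lower at E12.5 against E11.5, where 1.92% and 2.92% of all rows were. At E12.5 against E10.5, 0 deep rows were higher and 0 lower with separate odds, where 0% and 0.101% of all rows were, so that none of the 7 rows passed. At E11.5 against E10.5, 2 were higher and 0 lower, where 0.403% and 0.302% of all rows were. The median difference of the deep rows at E12.5 against E11.5 was 1.38 SDs with 1 set of odds, against 0.79 over all rows, and 0.48 with separate odds, against 0.36. Without E11.5 sample 2, 2 rows were higher and 0 lower at E12.5 against E11.5. Without E12.5 sample 3, 68 were higher and 6 lower. Without E12.5 sample 1 there were 23 higher, without E11.5 sample 3 there were 25, and without E12.5 sample 2 there was 1 lower. The 7 hosts higher at E12.5 against E10.5 became 0 without E10.5 sample 1 or 2, E11.5 sample 1 or 2 or E12.5 sample 1, 3 without E11.5 sample 3, 4 without E12.5 sample 2 and 21 without E12.5 sample 3. In lists cut to equal length, 0 were higher and 1 lower at E12.5 against E11.5, with 1 deep row left to test. The variance was pooled fully over rows, so the spread of a single gene over the lists had no weight in the p. In every row the regions had to reach 3 lists, and calls at the stage with more calls count towards that limit. A difference in calls can therefore follow in part from the choice of regions.

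Both models called 5 genes at E12.5 against E11.5: Dok5 and Fgd3 higher, and Pde4d, Robo2 and Trio lower. The models used the same regions and calls, so a pass in both is not separate support. Dok5 encodes an adaptor of receptor tyrosine kinases, and its 3 regions were called 3, 3 and 3 times at E12.5 and 0, 0 and 0 times at E11.5. The residual was 4.16 ± 0.79 SDs higher (SE, limma adjusted p = 0.00013, and 0.00489 with separate odds). At E10.5 the Dok5 calls were 0, 0 and 1. Fgd3, a Cdc42 exchange factor gene, also had 3, 3 and 3 calls at E12.5 and 0, 0 and 0 at E11.5, with 1, 1 and 0 at E10.5. Its residual was 4.10 ± 0.79 SDs higher (limma adjusted p = 0.00013, and 0.00555 with separate odds). No E11.5 list called any of these tested regions of the 2 genes. Other regions of the genes, called by fewer lists or nearer to a gene boundary, are not in these counts. All 3 regions of each gene reached the limit of 3 lists only through the E12.5 lists, so a difference in their calls follows in part from the choice of regions. The expected calls are set given the number of lists per region, and no value without this choice could be had for these 2 genes.

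Pde4d, Robo2 and Trio were called most at E11.5. The 7 regions of Pde4d had 1, 2 and 2 calls at E12.5, against 4, 6 and 6 at E11.5, and 2, 3 and 1 at E10.5. The residual of Pde4d fell by 3.05 ± 0.79 SDs at E12.5 against E11.5 (limma adjusted p = 0.00835, and 4.94e-07 with separate odds). At E11.5 against E10.5, Pde4d was 2.63 SDs higher, which did not pass with 1 set of odds (limma adjusted p = 0.0921) and passed with separate odds (adjusted p = 0.00459). Of 19 alternatives, 17 did not give a pass for Pde4d in that comparison. The Pde4d regions at chr13:109440337-109441340 and chr13:109821978-109822958 were called by the E11.5 lists alone, with folds of 5.51, 9.40 and 7.53 and of 5.89, 9.56 and 7.94. Of the 7 Pde4d regions, 6 reached the limit of 3 lists only through the E11.5 lists. The same held for all 4 Robo2 and all 3 Trio regions, so that their difference also follows in part from the choice of regions. With regions of 4 or more lists Pde4d fell by 2.33 SDs (limma adjusted p = 0.0393). Calls at E11.5 count towards that limit too, so this value does not remove the choice of regions.

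Robo2 encodes a receptor of the Slit ligands and Trio a guanine nucleotide exchange factor that acts downstream of guidance receptors. The 4 Robo2 regions had 0, 1 and 0 calls at E12.5, against 2, 3 and 4 at E11.5, and 1, 2 and 0 at E10.5. The residual of Robo2 fell by 2.97 ± 0.79 SDs (limma adjusted p = 0.0098, and 1.2e-05 with separate odds). The 3 Trio regions had 0, 0 and 0 calls at E12.5, against 1, 3 and 3 at E11.5, and 1, 2 and 0 at E10.5. The residual of Trio fell by 2.85 ± 0.79 SDs (limma adjusted p = 0.0112, and 8.36e-05 with separate odds). Without E11.5 sample 2, Pde4d (limma adjusted p = 0.0575), Robo2 (0.0572) and Trio (0.11) did not pass. Pde4d also did not pass without E11.5 sample 1 (limma adjusted p = 0.0613), without E12.5 sample 2 (0.0658), with a −log10 q of at least 5 (0.15) or with log2 of calls over expected calls (0.11). Robo2 did not pass with that log2 ratio (limma adjusted p = 0.0737), nor did Trio (0.0558), which also did not pass without E12.5 sample 2 (0.0806).

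**Figure D5:**
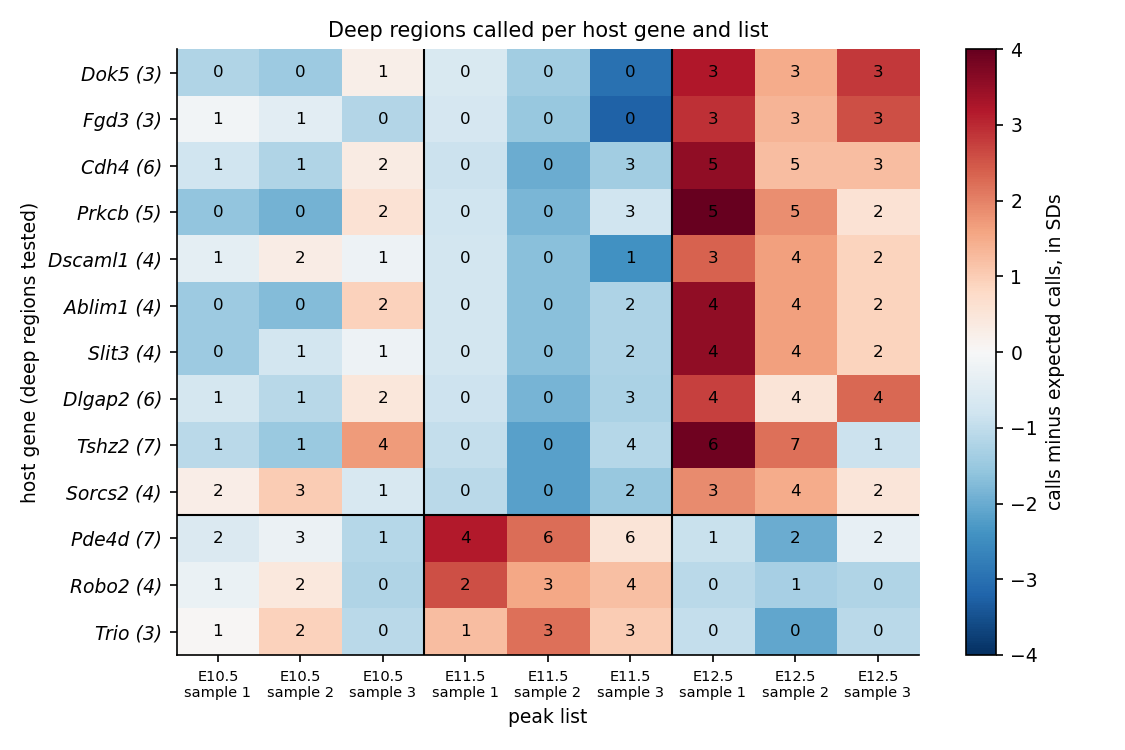
Deep regions called (numbers) and calls minus expected calls in SDs (colour) for host genes that passed at E12.5 against E11.5 with 1 set of odds, the first 10 higher ones above the line and the 3 lower ones under it, by peak list. Dok5 and Fgd3 have 3 calls in each E12.5 list and none at E11.5, and the number in brackets is the number of regions tested.

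The other hosts among the 10 most significant higher rows at E12.5 against E11.5 were Cdh4, Prkcb, Dscaml1, Ablim1, Slit3, Dlgap2, Tshz2 and Sorcs2. None of them passed with separate odds (limma adjusted p from 0.0706 to 0.149). Cdh4, the R-cadherin gene, had 5, 5 and 3 calls at E12.5, against 0, 0 and 3 at E11.5. Its residual was 3.42 ± 0.79 SDs higher (limma adjusted p = 0.00303, and 0.0832 with separate odds). Slit3, which encodes a ligand of Robo receptors, had 4, 4 and 2 calls at E12.5, against 0, 0 and 2 at E11.5, and a residual 3.24 ± 0.79 SDs higher (limma adjusted p = 0.00411, and 0.0751 with separate odds). Of the Slit3 regions, that at chr11:35547665-35548238 was called by the E12.5 lists alone, with folds of 3.83, 2.36 and 2.97. The 7 hosts higher at E12.5 against E10.5 were Dok5, Prkcb, Dclk1 (a microtubule-associated kinase), Mvb12b, Fgd3, Slit3 and Ablim1 (an actin-binding protein). Their limma adjusted p lay between 0.0321 and 0.0457, and between 0.168 and 0.242 with separate odds. The E10.5 calls were 1, 1 and 2 in Cdh4 and 0, 1 and 1 in Slit3. How many regions reached the limit of 3 lists only through the E12.5 lists was counted for Dok5 and Fgd3 but not for the other hosts named here. In Dclk1 the 3 regions had 0, 0 and 0 calls at E10.5 and 0, 0 and 3 at E11.5, so none reached 3 lists without E12.5. The Slit3 calls outside E12.5 were too few for most of its regions to reach 3 lists. The differences of these genes follow in part from the choice of regions, and those of the other hosts may as well.

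Deep and other regions of the same gene were compared by the same test. For 31 genes with enough of both, 0 differed at any of the 3 comparisons (limma, adjusted p under 0.05), and 4, 2 and 5 had an unadjusted p under 0.05 at E12.5 against E10.5, at E11.5 against E10.5 and at E12.5 against E11.5. With separate odds, 1 passed at E12.5 against E11.5.

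Genes of pathways that act in the face were hosts to different degrees. Of 13 FGF pathway genes with deep body 6 hosted regions, and the same held for 9 of 22 chondrogenic and osteogenic genes, 8 of 20 Wnt genes and 4 of 10 Hedgehog genes. There were 12 hosts of 30 cadherins and long adhesion genes, 9 of 28 axon guidance genes, 5 of 22 BMP and TGF-beta genes and 5 of 25 matrix and collagen genes. There were 2 hosts of 12 maxillary and palate patterning genes, 1 of 11 neural crest genes and 1 of 10 retinoic acid genes, against 19.2% of all genes with deep body. Per Mb the Hedgehog genes held 6.84 regions, the Wnt genes 6.12, the FGF genes 4.47, the axon guidance genes 1.55 and the adhesion genes 1.06, against 3.98 over all deep body. Over all genes, hosting ran from 5.38% to 55.8% and density from 6.85 to 1.59 per Mb as deep body grew longer. The lists were not matched for this length: the 30 adhesion genes held 28.4 Mb of deep body and the 13 FGF genes 2.24 Mb. Whether a list departs from genes of like length was not tested.

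In the Wnt list Tcf7l2 and Lef1, genes of nuclear effectors, held the most regions. Tcf7l2 had 4, with 1, 2 and 1 calls in E10.5 lists, 0, 2 and 3 in E11.5 lists and 2, 2 and 2 in E12.5 lists. Lef1 had 3, with 0, 2 and 0 calls in E10.5 lists, 0, 0 and 2 in E11.5 lists and 2, 2 and 2 in E12.5 lists. Tcf7l1, Tcf4, the receptors Ror1, Ror2 and Lrp5 and the glypican Gpc6 had 2 each. In the FGF list Fgf12, an intracellular FGF family member, had 3 regions and the receptor gene Fgfr1 had 2. In the Hedgehog list the co-receptor Boc and the inhibitor Sufu had 2 each, and the receptor Ptch1 and the ligand releaser Disp1 had 1 each.

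Skeletal regulators were among the hosts as well. Nfia, a nuclear factor I gene, had 5 regions, with 2, 4 and 2 calls in E10.5 lists, 0, 5 and 5 in E11.5 lists and 0, 2 and 1 in E12.5 lists. Nfia did not pass at E12.5 against E11.5 with 1 set of odds (residual -2.07, limma adjusted p = 0.0663) and passed with separate odds (adjusted p = 0.0033). Of 17 alternatives, 11 did not give a pass for Nfia. Runx2, the master transcription factor of bone, had 3 regions, and that at chr17:44734493-44735550 was called by all 3 E10.5 lists, by E11.5 sample 3 and by all 3 E12.5 lists. Runx2 had 1, 1 and 2 calls in E10.5 lists, 0, 0 and 3 in E11.5 lists and 3, 2 and 2 in E12.5 lists, and did not pass (limma adjusted p = 0.103 at E12.5 against E11.5). Ets1, a neural crest transcription factor gene, had 3 regions with 2, 1 and 1 calls in E10.5 lists, 0, 3 and 3 in E11.5 lists and 1, 2 and 1 in E12.5 lists.

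In all, 15 genes of the lists had enough deep regions to be tested. At E12.5 against E11.5 with 1 set of odds, Slit3, Cdh4 and Opcml were higher, Robo2 was lower and the other 11 did not pass, while 17.2% of all 232 deep rows were higher. Opcml, the gene of a cell adhesion molecule, did not pass with separate odds (limma adjusted p = 0.229), nor did Slit3 and Cdh4. Marker genes of other cell types hosted regions about as often as all genes with deep body did, with 6 of 31 (19.4%) against 19.2%, without matching for length. Of the genes with deep body, 3 of 10 endothelial markers (Erg, Flt1 and Pecam1) hosted 1 region each, 1 of 5 blood and macrophage markers hosted 2 (Runx1, which the skeletal list also holds), 1 of 4 myogenic markers (Pax7) and 1 of 5 epithelial markers (Grhl2) hosted 1 each, and 0 of 7 neuronal and glial markers hosted any. None of the 6 maxillary mesenchyme markers with deep body did. The Erg, Pax7 and Grhl2 regions were each called by E11.5 sample 3 and E12.5 samples 1 and 2, the 3 longest lists.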

How the data were processed

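ATAC-seq was done on 9 biological samples, 3 at each of 3 stages, from 23 library runs. Tools named in the submitters' processing notes are MACS2, Bowtie2 and deepTools 3.3.1, with the build mm10, and per the labels blacklisted regions had been removed. The transposase offset, read filters and MACS2 threshold are not given in the sources used. For every peak the authors deposited the fold enrichment at its summit (a ratio), −log10 of the p-value and of the q-value, and the summit offset, in 1 list per sample. They were used only to rank, filter or describe peaks within a list. The files hold no read counts, so depth is unknown and no read-level precision can be given.

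Regions, positions and host genes were computed as the report's opening states; a region was placed by its midpoint, and exons, introns and untranslated regions were not separated. Internal starts and microRNAs came from RefSeq tables of the same build. Deep shares were compared by exact two-sided permutation tests over lists. Host genes were tested with limma 3.58.1 (R 4.3.3) on residuals of calls, stage as a factor over all 9 lists, Benjamini-Hochberg adjustment over 992 rows. Regions called by all 9 lists carry no stage information and stayed out of that test. Scripts ran in Python 3.11.15 with SciPy 1.17.1, NumPy 2.4.6, Matplotlib 3.10.9 and pandas 2.3.3.

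The regions and the gene lists were chosen with earlier results of these data known. Named genes are the 12 hosts with most regions, the 8 densest hosts with 4 or more, up to 10 passing hosts per comparison and direction, list genes with 3 or more regions, hosts of the 5 highest ranked gained or lost regions per comparison, and up to 10 hosts of regions in all 9 lists; list genes with fewer regions, internal starts, microRNA hosts and the genes whose sequences are printed were added after their values were seen. Alternatives covered peak strength, list length, distance, number of lists, summits, the calling model, the replicate number as a block and leaving out each list. One gene among the hosts of gained regions is not reported here.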

Additional observations from a re-analysis of the deposited data

How the results depend on the processing

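The direction of the deep share differences and slope was the same under every alternative run except 1: E11.5 minus E10.5 turned to 0.13 percentage points without boundary regions in the denominator. The slope passed its test only under a minimum −log10 q of 5 (1.04 points per day, exact p = 0.0405). Leaving out 1 list gave slopes of 1.49 to 2.69, E12.5 minus E10.5 of 3.63 to 5.64, E11.5 minus E10.5 of -4.70 to -0.94 and E12.5 minus E11.5 of 5.39 to 9.16 points. The E12.5 minus E10.5 share of host starts among deep calls moved to -15.3 points in equal-length lists, which was chosen after seeing the data, and lay between -10.5 and -7.37 without 1 list. E11.5 minus E10.5 then lay between 9.37 and 27.3 and E12.5 minus E11.5 between -36.0 and -18.2.

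Gained and lost regions fell in number wherever peaks were dropped. With a −log10 q of at least 5 there were 10 gained and 9 lost at E12.5 against E10.5, 51 and 2 at E11.5 against E10.5, and 12 and 81 at E12.5 against E11.5. In equal-length lists the numbers were 17 and 15, 49 and 22, and 41 and 81 in the same order. Under both settings more were lost than gained at E12.5 against E11.5, the reverse of the main setting. With 4 or more lists, 55, 13 and 86 were gained, and 62 lost at E12.5 against E11.5. Beyond 20 kb, 17 were lost at E12.5 against E10.5. Leaving out 1 list gave 149 to 496 gained and 28 to 81 lost at E12.5 against E10.5, 108 to 195 and 51 to 153 at E11.5 against E10.5, and 180 to 390 and 157 to 301 at E12.5 against E11.5.

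Host gene counts moved most. At E12.5 against E10.5 the 7 higher hosts became 0 with a −log10 q of at least 5, in equal-length lists, beyond 20 kb, with odds by position class, with odds fitted on regions in 1 to 8 lists and with log2 of calls over expected calls. They became 2 with 4 or more lists, 13 with merged summits, 4 with 5 or more regions a gene, and 0 to 21 without 1 list. At E11.5 against E10.5, 1 host was lower with a −log10 q of at least 5, 1 higher in equal-length lists and 2 higher with odds by class. At E12.5 against E11.5 the 40 higher and 3 lower hosts became 1 and 0 with a −log10 q of at least 5, 0 and 1 in equal-length lists, 7 and 1 with 4 or more lists, 2 and 10 with odds by class, 2 and 6 with odds on 1 to 8 lists, and 3 and 0 with the log2 ratio. Merged summits gave 5 lower and 5 or more regions a gene gave 22 higher. Leaving out 1 list gave 2 to 68 higher and 0 to 6 lower. A stronger q threshold and equal length leave 2 and 1 deep hosts to test. The test of deep against other regions of 1 gene gave 1 gene at E12.5 against E11.5 with odds by class and with the log2 ratio. With the replicate block the 7 hosts became 2 at E12.5 against E10.5, and 39 higher and 3 lower remained in number at E12.5 against E11.5. Deviations of same-numbered lists correlated at -0.126 to 0.0931, so the numbers were not treated as pairs. The cause of these moves was not tested, apart from the smaller number of hosts named above. Precision is limited by 3 lists of unequal length per stage.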
